A study of Mus musculus with 4 samples.

Results

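The genes described here encode the proteins of the mitochondrial ribosome. They were taken as every RefSeq protein-coding gene of GRCm38.p6 (the assembly also called mm10) whose symbol is Mrpl or Mrps followed by a number, which gave 78 of 21887 protein-coding genes on the chromosomes. All 78 were measured. By textbook assignment 51 encode proteins of the large subunit, counting Mrps18a and Mrps30 despite their names, 26 encode proteins of the small subunit, and Mrps36 is known as a subunit of the 2-oxoglutarate dehydrogenase complex.

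The mitochondrial ribosome translates the few respiratory chain subunits encoded in mitochondrial DNA, and all of its proteins are made from nuclear genes and imported. Its large subunit forms peptide bonds and its small subunit reads the mRNA. Many of its proteins descend from bacterial ribosomal proteins, and others exist only in mitochondria. Nuclear genes of mitochondrial function are known targets of the transcription factors NRF1, GABP (an ETS factor) and YY1. Acetylation of histone H3 at lysine 27 (H3K27ac) marks active promoters and enhancers.

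The study measured H3K27ac by fanChIP and sequencing in C57BL/6 mouse bone marrow cells labelled CD45.2+. The control group has the genotype label cKit(+), and the BN1 group the label cKit(+) BRD9-NUTM1. BRD9-NUTM1 is a leukaemia fusion of a chromatin remodelling subunit with a testis protein that binds p300. Each group had 1 ChIP library and 1 input library, and the 2 peak lists of the ChIP libraries were used here. The sources used here do not give how the fusion was introduced, the age of the mice or any pooling of animals. The protocol text speaks of BN1 cells even for the control samples, and the names of the peaks inside the lists (BRNU under the control sample, BM under the BN1 sample) run against the sample titles. Groups follow the titles, so every direction is that of the label only. With 1 library per group no replicate error can be given and no test was run, so every difference describes these libraries only.

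The list labelled control held 28343 peaks over 31.0 Mb and the BN1-labelled list held 19148 peaks over 19.1 Mb, and read depth is unknown. Of the genes behind the sort labels, Ptprc (CD45) had a peak near a gene end in both lists and Kit had none within 10 kb in either. A peak near a gene end was found for 4 of 5 B lymphoid and 4 of 5 neutrophil markers in the BN1-labelled list only, and for 3 of 4 monocyte and macrophage markers and 2 of 5 stem and progenitor markers (Cd34 and Meis1) in the control-labelled list only. Of 4 erythroid markers 2 had one in the BN1-labelled list only, and none of 4 T and NK markers had one in either. Over all protein-coding genes, 3.23% had such a peak in the BN1-labelled list only, 6.62% in the control-labelled list only and 51.8% in neither. The cell makeup of the libraries therefore cannot be told apart from the genotype in any difference below, and its part in the results was not tested.

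To show what the acetylated starts look like, the promoters of 8 members are printed from RefSeq (GRCm38.p6), 5′ to 3′ on the strand of the gene, from position -150 to position 30, the first transcribed base being 1 with no position 0. They were chosen after the values were seen: Mrpl30 had a peak at its start in the BN1-labelled list only, Mrps33, Mrpl39 and Mrps2 in the control-labelled list only, Mrps11 and Mrps7 carried the highest fold enrichments, and Mrpl33 and Mrpl43 hold several of the motifs. Capitals mark CCGGAA (the ETS core), GCATGCGC (NRF1) and AAGATGG (YY1) on either strand, and neighbouring matches run together.
Mrpl30 (chr1:37890327-37890506, plus strand): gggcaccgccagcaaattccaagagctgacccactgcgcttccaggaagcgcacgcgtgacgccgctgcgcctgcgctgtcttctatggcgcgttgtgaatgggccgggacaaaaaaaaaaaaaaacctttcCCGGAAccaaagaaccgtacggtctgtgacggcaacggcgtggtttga
Mrps33 (chr6:39810907-39811086, minus strand): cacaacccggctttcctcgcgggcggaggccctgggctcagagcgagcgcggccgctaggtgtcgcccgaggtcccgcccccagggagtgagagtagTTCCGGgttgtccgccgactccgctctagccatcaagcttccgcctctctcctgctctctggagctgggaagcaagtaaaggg
Mrpl39 (chr16:84735215-84735394, minus strand): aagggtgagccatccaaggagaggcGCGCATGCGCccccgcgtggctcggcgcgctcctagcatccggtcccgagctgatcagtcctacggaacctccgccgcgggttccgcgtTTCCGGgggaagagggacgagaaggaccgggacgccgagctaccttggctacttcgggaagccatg
Mrps2 (chr2:28467916-28468095, plus strand): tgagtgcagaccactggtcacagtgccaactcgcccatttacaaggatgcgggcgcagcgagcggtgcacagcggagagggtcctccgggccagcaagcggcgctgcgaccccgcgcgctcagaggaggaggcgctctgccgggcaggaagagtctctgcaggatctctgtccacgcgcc
Mrps11 (chr7:78782981-78783160, plus strand): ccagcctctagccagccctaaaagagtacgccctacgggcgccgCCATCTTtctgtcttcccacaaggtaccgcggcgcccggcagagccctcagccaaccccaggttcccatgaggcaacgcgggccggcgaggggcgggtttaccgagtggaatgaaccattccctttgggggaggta
Mrps7 (chr11:115603990-115604169, plus strand): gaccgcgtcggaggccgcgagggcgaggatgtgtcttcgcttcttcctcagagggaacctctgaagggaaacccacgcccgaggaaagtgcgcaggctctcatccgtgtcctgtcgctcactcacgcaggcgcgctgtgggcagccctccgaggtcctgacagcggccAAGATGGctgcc
Mrpl33 (chr5:31613801-31613980, plus strand): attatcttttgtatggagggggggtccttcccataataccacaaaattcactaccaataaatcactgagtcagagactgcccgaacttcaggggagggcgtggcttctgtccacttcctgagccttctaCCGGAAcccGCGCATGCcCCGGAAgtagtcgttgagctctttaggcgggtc
Mrpl43 (chr19:45006413-45006592, minus strand): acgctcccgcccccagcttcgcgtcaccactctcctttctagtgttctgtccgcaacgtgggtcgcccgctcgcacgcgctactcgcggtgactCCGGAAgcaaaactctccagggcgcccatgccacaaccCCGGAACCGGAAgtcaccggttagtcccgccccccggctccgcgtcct

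The first question was whether the ends of these genes carried H3K27ac in both cell populations. Most did. An end region, meaning a peak within 1000 bp of either gene end, was present in both lists at 66 of the 78 genes (84.6%), against 38.4% of all protein-coding genes. It was present in the control-labelled list at 71 genes (91.0%, exact 95% interval 82.4 to 96.3, counting error only), against 45.0% of all genes. In the BN1-labelled list it was present at 67 genes (85.9%, 76.2 to 92.7), against 41.6%. Both intervals treat genes as independent draws, although all 78 were measured and Mrpl46 and Mrps11 share a peak. They say nothing about replicate libraries. Only 5 members had an end region in the control-labelled list alone, which is 6.41% and near the 6.62% of all genes, and 1 in the BN1-labelled list alone (1.28%, against 3.23%). No end region was called in either list at 6 members (7.69%, against 51.8%).

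**Figure D1:**
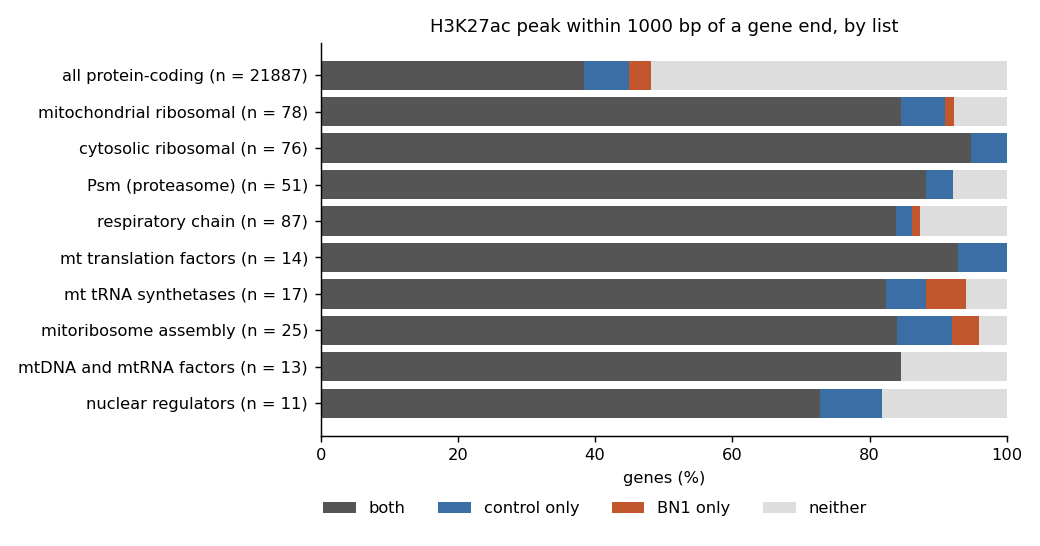
Share of genes (x axis, percent) with an H3K27ac peak within 1000 bp of a gene end in both lists, in the control-labelled list only, in the BN1-labelled list only or in neither, for each gene list (y axis, with its number of genes). The bar of the mitochondrial ribosomal protein genes is 84.6% in both lists, against 38.4% for all protein-coding genes and 94.7% for the cytosolic ribosomal protein genes.

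The count was then taken by subunit and ancestry. Both lists had an end region at 44 of 51 large subunit genes (86.3%) and at 21 of 26 small subunit genes (80.8%). By ancestry, 40 of 47 genes of proteins with a bacterial counterpart (85.1%) and 25 of 30 genes of proteins found only in mitochondria (83.3%) had one in both. Of the 5 members with an end region in the control-labelled list only, Mrps25, Mrps31, Mrps33 and Mrpl39 encode proteins found only in mitochondria and Mrpl35 one with a bacterial counterpart. These counts are small and were not tested against each other.

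Other housekeeping gene sets gave similar shares. An end region in both lists was found at 72 of 76 cytosolic ribosomal protein genes (94.7%), 45 of 51 genes with proteasome (Psm) symbols (88.2%) and 73 of 87 genes of the respiratory chain and ATP synthase (83.9%). The share in the members thus lies within the range of these sets.

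The balance of the genes with an end region in 1 list depended on how many peaks of each list were used. With the top 10000 peaks of each list by −log10 q, 37 members had end regions in both lists (against 26.9% of all genes), 6 in the control-labelled list only (against 4.6%) and 19 in the BN1-labelled list only (against 7.54%). With a −log10 q minimum of 10 the counts in the same order were 48, 5 and 11, against 31.8%, 6.71% and 4.15% of all genes. At a minimum of 5 they were 62, 4 and 4, against 36.3%, 6.65% and 3.5%. With lists of equal length they were 62, 3 and 5, against 36.7%, 5.09% and 4.91%. The excess on the side of the control label in the full lists was gone at a minimum of 5 and turned under the other limits.

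Gene ends were a coarse guide to the start of transcription at some members. RefSeq promoter entries, which give strand and start, matched 69 of the 78 genes; where a gene had several, the one nearest its outer end was used. Within 1000 bp of that start, 61 of 69 members had a peak in both lists (88.4%, against 39.7% of all 17492 genes with an entry). In the control-labelled list only there were 6 (8.70%, against 6.11%), in the BN1-labelled list only 1 (1.45%, against 2.85%), and in neither 1 (1.45%, against 51.3%). The members without an end region in either list were Mrpl4, Mrpl22, Mrpl24, Mrpl34, Mrps2 and Mrps23. The annotated start lies 1621 bp inside the outer gene end at Mrpl22, 1413 bp at Mrpl24, 2115 bp at Mrps2 and 10282 bp at Mrps23. At these starts Mrpl22, Mrpl24 and Mrps23 had a peak in both lists and Mrps2 in the control-labelled list only.

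Mrps23, a small subunit protein found only in mitochondria, is an example with its start far inside the gene end. The peak over its start was 1577 bp wide with a fold enrichment of 11.4 in the control-labelled list, and 1285 bp wide with 7.78 in the BN1-labelled list. Fold enrichment is the authors' value at the summit of a peak, and is comparable only within its list. Mrpl4 has no promoter entry, and its nearest peak lay 1405 bp from a gene end in both lists, inside the gene. Mrpl34 alone had no peak near its annotated start in either list. Its nearest peaks lay 4140 bp (list labelled control) and 4115 bp (list labelled BN1) from the start, next to an end of Dda1.

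Mrpl30, a large subunit protein gene on chromosome 1, was the single member with an end region in the BN1-labelled list only. Its peak was 1167 bp wide with a fold enrichment of 14.9, within the top 27.5% of that list by −log10 q. In the control-labelled list the nearest peak lay 25313 bp away. The start of Mitd1 lies 66 bp from that of Mrpl30 on the opposite strand, so the peak covers both starts and cannot be given to either gene.

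Among the members with a peak in the control-labelled list only, Mrps33 (small subunit, chromosome 6) had the strongest. It was 649 bp wide with a fold enrichment of 8.12, in the top 21.1% of its list. Mrpl39 (large subunit, chromosome 16) had 1155 bp with a fold enrichment of 4.61, and Mrps2, the counterpart of bacterial protein S2, had 713 bp at its start with 4.61. Mrpl35 had 780 bp with 4.50. Mrps31 had 471 bp with 3.38 and Mrps25 had 329 bp with 3.28, and both stood low in their list, at the top 80.1% and 80.2% by −log10 q. In the BN1-labelled list the nearest peak to an end of these genes lay between 7079 bp (Mrpl35) and 111060 bp (Mrps2) away. Whether these starts carry the mark below the calling threshold in the other library cannot be read from a peak list.

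Next, the strength of the end peaks was compared with that of other acetylated genes. Over the 66 members with end regions in both lists, the median fold enrichment of the strongest end peak (that of the highest −log10 q) was 11.2 (quartiles 6.83 and 17.0) in the control-labelled list, against 13.1 (8.61 and 19.3) over all 8395 genes with an end region in both. In the BN1-labelled list it was 10.1 (6.46 and 14.5), against 13.5 (7.78 and 23.2). By rank the median member peak stood at the top 27.2% of the control-labelled list and the top 33.2% of the BN1-labelled list, against 19.3% and 22.4% for all such genes. The cytosolic ribosomal protein genes had higher medians, 16.7 and 15.4.

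**Figure D2:**
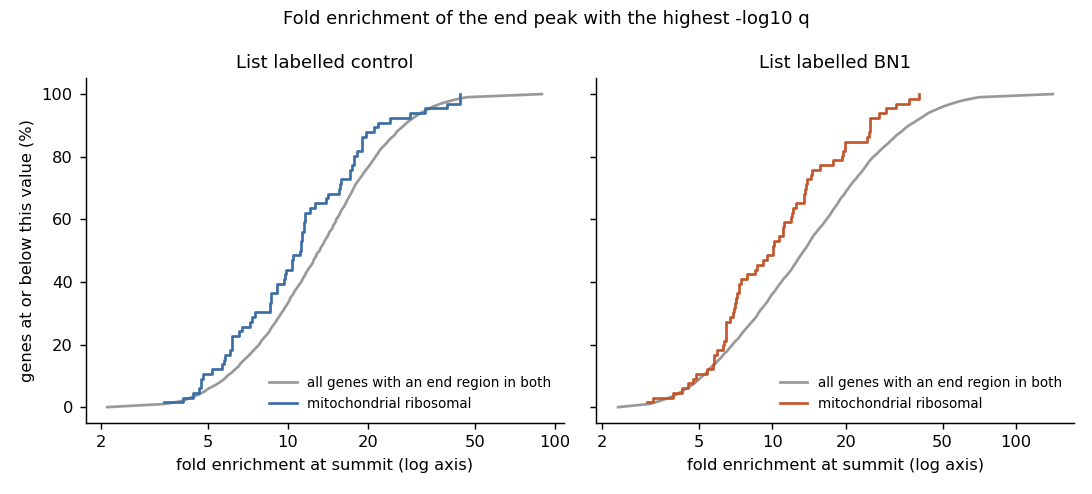
Fold enrichment at the summit of the strongest end peak (x axis, log scale) against the percent of genes at or below it (y axis), for the 66 mitochondrial ribosomal protein genes with end regions in both lists (coloured steps) and all 8395 such genes (grey). The member curves lie to the left of the grey curves over most of their range, with medians of 11.2 against 13.1 (labelled control) and 10.1 against 13.5 (labelled BN1).

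The members with the highest fold enrichments did not all stand near the top of their list. In the BN1-labelled list the highest member value lay at percentile 92 of the genes with end regions in both lists. Mrpl46 (large subunit) and Mrps11 (small subunit) lie head to head on chromosome 7 with starts 42 bp apart and share a single peak. It had a fold enrichment of 44.1 in the control-labelled list, in its top 0.769%, and 25.2 in the BN1-labelled list, in its top 10.6%. Mrps5 followed with 39.4 and 19.8, Mrpl33 with 32.5 and 24.9, and Mrpl27 with 28.5 and 29.4 (labelled control first). In the BN1-labelled list the highest values were at Mrps7 (40.0, with 24.0 in the control-labelled list), Mrps18b (36.4 and 17.7), Mrpl41 (32.3 and 9.77), Mrpl27 and Mrpl48 (27.5 and 17.0). Mrpl27 was the single gene among the 5 highest members of both lists.

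The end peaks of these genes were narrow. Their summed width at a member had a median of 1085 bp (quartiles 722 and 1465) in the control-labelled list, against 1523 bp over all genes with end regions in both lists. In the BN1-labelled list it was 857.5 bp (542.5 and 1218.5), against 1268 bp. The end peaks were wider in the control-labelled list at 46 of 66 members (69.7%, against 67.3% of all such genes) and wider in the BN1-labelled list at 20. The median ratio, BN1 to control, was 0.791, against 0.861 over all such genes.

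Differences of at least 2-fold in the width of end peaks were few. They favoured the control-labelled list at 4 members (6.06%, against 15.4% of all genes with end regions in both lists) and the BN1-labelled list at 4 (6.06%, against 3.9%). Mrpl12, a stalk protein of the large subunit that also binds the mitochondrial RNA polymerase, had 1360 bp in the control-labelled list and 314 bp in the BN1-labelled list. Mrpl23 had 1830 and 363 bp, Mrps10 had 1043 and 268 bp, and Mrps35 had 1173 and 503 bp. In the other direction stood Mrpl10, another stalk protein (405 and 956 bp), Mrpl15 (396 and 951 bp), Mrpl18 (887 and 1887 bp) and Mrpl45 (264 and 617 bp). All 4 of the latter encode large subunit proteins, and the count is too small for a statement about the subunit.

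**Figure D3:**
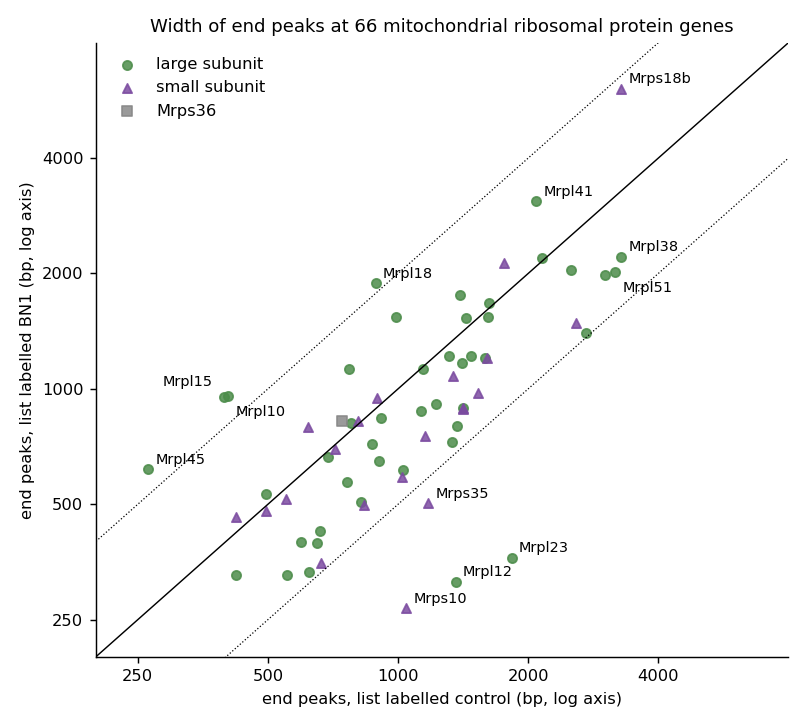
Summed width of the peaks within 1000 bp of a gene end in the control-labelled list (x axis, bp, log scale) and in the BN1-labelled list (y axis, bp, log scale) at the 66 members with an end region in both. The solid line marks equal width and the dotted lines a 2-fold difference; most points lie between the dotted lines, with 46 below the solid line and 20 above it.

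The widest single end peaks lay at Mrpl51 (3177 bp), Mrps18b (2704 bp) and Mrps34 (2582 bp) in the control-labelled list and at Mrps18b (4571 bp), Mrpl41 (3086 bp) and Mrpl48 (2198 bp) in the BN1-labelled list. By the summed width of all end peaks, Mrpl38 came first in the control-labelled list with 3286 bp, of which 2573 bp was a peak also at an end of Trim65. The widest peak of Mrps34 also lay at ends of Eme2, Nme3 and Mapk8ip3, and that of Mrpl48 at an end of Rab6a. Mrps18b, one of the homologues of bacterial protein S18, had end peaks summing to 3278 bp in the control-labelled list and 6064 bp in the BN1-labelled list. Its main peak measured 2704 and 4571 bp and reaches the neighbouring gene Ppp1r10, whose start lies 756 bp away on the opposite strand. Mrpl41 had summed widths of 2084 and 3086 bp, and its main peak also lies at an end of Pnpla7. Mrpl51 had 3177 and 2015 bp beside Ncapd2, a condensin subunit gene.

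Peaks at member ends mostly coincided between the lists. Of 84 end peaks in the control-labelled list, 73 overlapped a peak of the other list by at least 1 bp (86.9%, exact 95% interval 77.8 to 93.3), against 78.2% (77.3 to 79.0) of all end peaks. Of 74 in the BN1-labelled list, 70 did so (94.6%, 86.7 to 98.5), against 87.9% (87.2 to 88.6). The intervals cover counting error only and treat peaks as independent. In the BN1-labelled list the order of members and all end peaks turned with fewer peaks. With a −log10 q minimum of 10, 80.3% of member end peaks were shared, against 86.2% of all. With the top 10000 peaks it was 63.8% against 75.9%. At genes with end regions in both lists, sharing in the full lists reached 91.3% (control label) and 95.6% (BN1 label). Both values lie above the member shares, which also count members with an end region in 1 list only. The excess over all end peaks therefore cannot be read as closer overlap particular to the members. The 11 unshared end peaks labelled control had a median fold enrichment of 4.26, against 10.3 for the shared ones, and the 4 labelled BN1 had 4.69, against 9.32. Besides the peak of Mrpl30, the unshared ones labelled BN1 lay at Mrpl33, Mrps18b and Mrps21, each of which also had a shared end peak.

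The summits of the strongest end peaks lay close together. The median distance between the summits in both lists was 54.5 bp (quartiles 27 and 141), against 72 bp (27 and 241) over all genes with an end region in both. At 65 of 66 members (98.5%) it was within 500 bp, against 88.1% of those genes. The strongest end peak was picked in each list over both ends of a gene, so the summits compared can lie at opposite ends. The values over those genes include such pairs, with distances up to 296750 bp, and were not recomputed without them. Among the members Mrpl2 had the largest distance, 540 bp, followed by Mrpl47 with 493 bp and Mrpl43 with 477 bp. At Mrpl2 the summit lay at 165 bp from the start in the control-labelled list and at -375 bp (upstream) in the BN1-labelled list, on the side of the head-to-head neighbour Klc4.

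Many of these starts are shared with another gene. Another protein-coding gene had an end within 1000 bp of the start at 33 of 69 members (47.8%), against 26.9% of the genes with end regions in both lists and 13.9% of all genes with a promoter entry. A head-to-head neighbour, with its start within 1000 bp on the opposite strand, was found at 23 of 69 (33.3%), against 16.2% and 7.52%. The median distance between such starts was 141 bp. Respiratory chain genes had 18 of 70 (25.7%) and cytosolic ribosomal protein genes 8 of 56 (14.3%).

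The head-to-head partners had varied known roles, and those described here were chosen after their values were seen. Mrps12, of the decoding centre of the small subunit, lies 147 bp from Sars2, the mitochondrial seryl-tRNA synthetase. Mrpl47 lies 308 bp from Ndufb5, a complex I subunit, and Mrps27 lies 108 bp from Ptcd2. Mrpl49 lies 192 bp from Fau, which encodes cytosolic ribosomal protein S30, Mrpl32 lies 205 bp from the proteasome gene Psma2, and Mrpl18 lies 238 bp from the chaperonin gene Tcp1. Other partners were Hira, a histone chaperone gene (113 bp from Mrpl40), Eme1, a DNA endonuclease subunit gene (48 bp from Mrpl27), Helq, a helicase gene (159 bp from Mrps18c), and Ska3, a kinetochore gene (76 bp from Mrpl57). No list of functions was counted over the partners. An end of Twnk, the mitochondrial DNA helicase, lies within 1000 bp of the start of Mrpl43. Of the peaks, 42 of the 84 end peaks labelled control and 39 of the 74 labelled BN1 (52.7%) also lay at an end of another gene, against 19.4% and 19.5% of all end peaks. These shares are not like for like. A peak at ends of several genes enters a chosen gene set more readily, so the size of the excess cannot be read from them. A peak at ends of several genes cannot be assigned to 1 gene.

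Summits lay mostly upstream of head-to-head starts and mostly downstream of the others, a difference that was not tested. At the head-to-head members the summit lay upstream of the start in 13 of 22 cases in the control-labelled list and in 15 of 23 in the BN1-labelled list, with medians of -93.5 and -126 bp. At the other members it lay upstream in 10 of 45 (22.2%) and 5 of 39 (12.8%), with medians of 112 and 191 bp downstream. The same split was present over all genes, with an upstream summit at 55.1% of head-to-head and 20.6% of other starts in the control-labelled list, and at 55.2% and 17.9% in the BN1-labelled list.

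**Figure D4:**
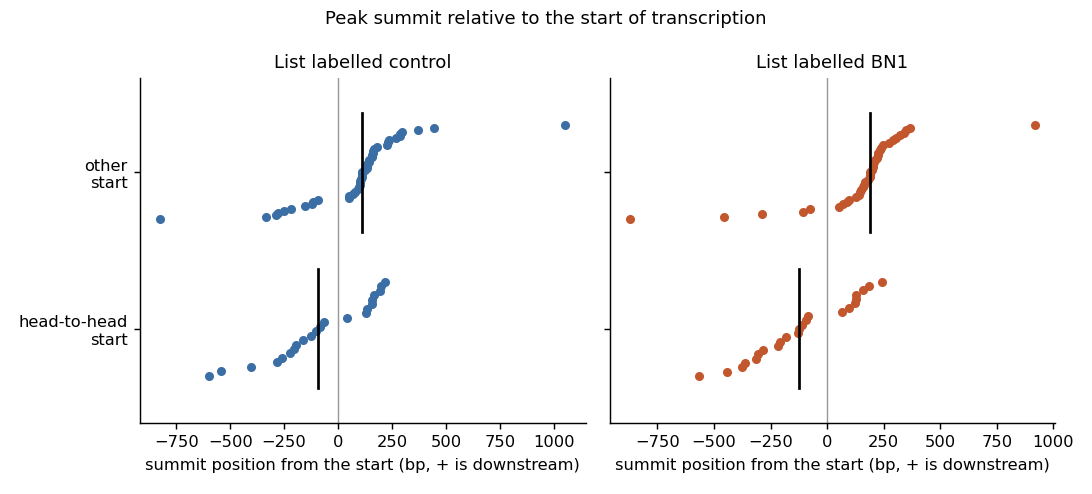
Position of the summit of the strongest peak within 1000 bp of the start (x axis, bp, positive values downstream) at members with a head-to-head neighbour and at other members (y axis), in each list. Each point is a gene and black bars are medians, which lie at -93.5 and -126 bp for head-to-head starts and at 112 and 191 bp for the others.

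The wider surroundings were measured as the acetylated length, the bp covered by peaks from 10 kb before to 10 kb after a gene. All 78 members had some, against 62.2% of all genes. The median was 1414 bp in the control-labelled list and 1055.5 bp in the BN1-labelled list, against 1925 and 1358 bp over the 13606 genes with any acetylated length. Subtracting the control value from the BN1 value gave a median of -341.5 bp (-457 bp over those genes). Per Mb of the covered length of each list it was 9.10 bp per Mb (10.2 over those genes), so its sign depends on the scale. Of the length covered in either list in these windows, 51.9% was covered in both. This compares with 39.2% over all genes and 46.6% over the genes with end regions in both lists.

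In bp, 16 of 78 members were at least 2-fold longer in the control-labelled list (20.5%, against 33.9% of genes with any acetylated length), and 3 in the BN1-labelled list (3.85%, against 10.5%). Per Mb the counts were 11 (14.1%, against 22.8%) and 10 (12.8%, against 19.0%). Over the 8395 genes with end regions in both lists the shares were 22.6% and 4.35% in bp, near those of the members. Per Mb they were 9.43% and 15.0%, so the control-labelled member share was above the first of these. Against the genes with any acetylated length, each member share was lower in the full lists, a difference that was not tested. For the BN1-labelled list this turned with fewer peaks: in bp, 13 of 72 members with any length (18.1%) were at least 2-fold longer with a −log10 q minimum of 10, against 11.7% of all genes, and 20 of 70 (28.6%) with the top 10000 peaks, against 20.3%. End peaks made up 54.3% of the peak length in the windows of the control-labelled list and 63.5% in those of the BN1-labelled list.

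**Figure D5:**
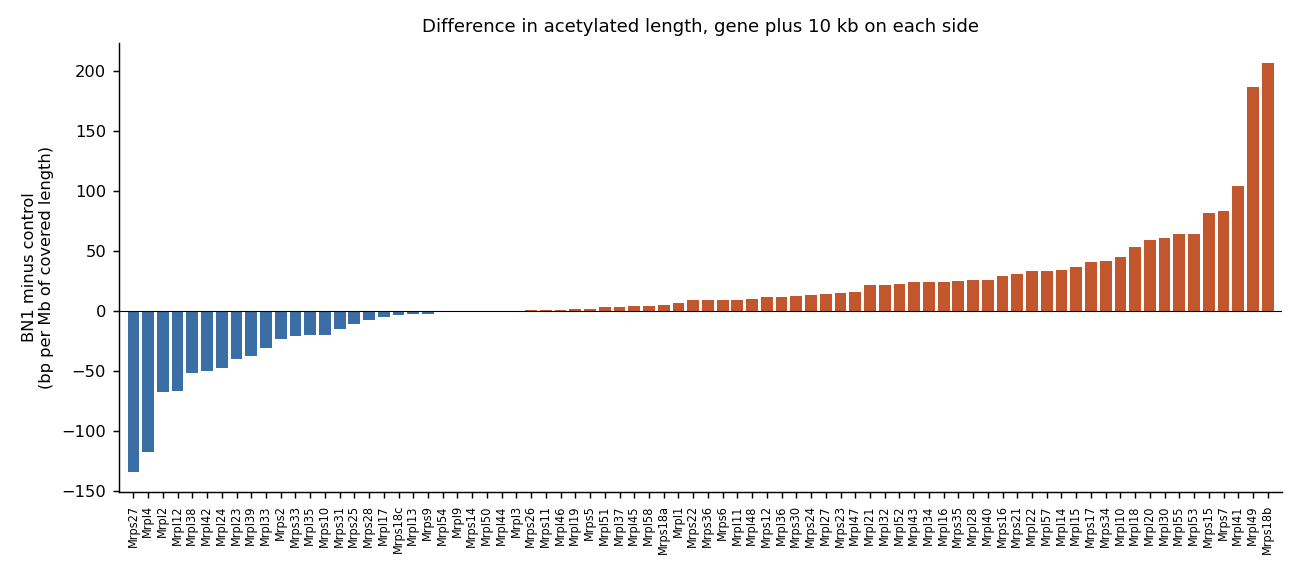
Difference in acetylated length between the lists (y axis, BN1 minus control, bp per Mb of the covered length of each list) for each of the 78 members (x axis, sorted). In all, 26 members lie below 0 and 52 above it, Mrps27 and Mrpl4 stand lowest at -133.84 and -117.25, and Mrpl49 and Mrps18b stand highest at 186.64 and 206.22.

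At the 5 members with the largest difference in favour of the control label, more of the difference lay in the flanks or inside the gene than in the end peaks. Mrps27, a small subunit protein found only in mitochondria, had 5492 bp in the control-labelled list and 825 bp in the BN1-labelled list. Its start peak measured 807 and 825 bp, and the rest lay in 4 unshared peaks inside the gene and 1 in its flank. Mrpl4 had 4977 and 825 bp, of which 1895 and 1761 bp in the control-labelled list belonged to unshared peaks in its flanks, the latter at an end of Icam1, the adhesion molecule gene. Mrpl2 had 5299 and 1985 bp, with an unshared flank peak of 2285 bp. Mrpl38 had 5195 and 2210 bp. Mrpl12 had 2568 and 314 bp, and there the start peak itself measured 1108 and 314 bp.

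In the other direction, Mrps18b had 3908 bp in the control-labelled list and 6352 bp in the BN1-labelled list, and Mrpl49 had 5773 and 7127 bp. At Mrpl49 the start peak was the narrower in the BN1-labelled list (1170 bp, against 1405 bp), and the difference lay in a flank peak at an end of Syvn1 (4728 bp, against 2266 bp). Mrpl41 had 2675 and 3634 bp. Mrps7 had 3717 and 3883 bp, so that its place among the highest members rests on the scale per Mb. Mrps15 had 974 and 2158 bp, most of the difference in a flank peak of 1364 bp, against 355 bp.

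The promoter letters were then described over the 69 members with an entry, in 300 bases from 250 before to 50 after the start, on both strands. CCGGAA, the ETS core, occurred in 39 of 69 (56.5%), against 34.1% of the 6893 promoters of genes with end regions in both lists and 19.1% of all 17492. In 37 members a match began within 100 bases before the start or after it (53.6%, against 25.8% and 13.8%). The longer CCGGAAGT, which contains the core, occurred in 11 (15.9%, against 10.8% and 5.28%). AAGATGG, part of the YY1 motif, occurred in 13 (18.8%, against 8.43% and 6.35%), in 8 of them after the start. GCATGCGC, part of the NRF1 motif, occurred in 8 (11.6%, against 6.53% and 3.61%), among them Mrpl39, Mrpl33, Mrpl32 and Mrps18b. At least 1 of CCGGAA, GCATGCGC and AAGATGG was present in 48 of 69 (69.6%, against 43.5% and 26.3%).

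For the other letters searched, the shares in the members were at or below those of promoters with a peak at a gene end in both lists. GGGCGG, the GC box, occurred in 34 of 69 (49.3%, against 67.8% and 46.3%) and CCAAT in 27 (39.1%, against 40.0% and 39.2%). CACGTG, the E-box, occurred in 5 (7.25%, against 10.9% and 7.91%) and TATAAA in 4 (5.80%, against 6.40% and 13.3%). TCTCGCGA, part of the ZBTB33 motif, occurred in 1, Mrpl57 (1.45%, against 3.06% and 1.53%). TCTCGCGA was found in 9 of 56 cytosolic ribosomal protein promoters (16.1%). The ETS core was found in 28 of those 56, in 21 of 43 Psm promoters (48.8%) and in 26 of 70 respiratory chain promoters (37.1%). In the same order, AAGATGG was found in 16.1%, 18.6% and 14.3%, and CCGGAAGT in 19.6%, 18.6% and 7.14%. GCATGCGC was found in 3.57%, 6.98% and 14.3%. The member shares of CCGGAAGT and GCATGCGC were thus below the highest of these sets, and that of AAGATGG was near it. A ratio of observed to expected CpG of at least 0.6 was found in 64 of 69 members (92.8%), against 80.5% of promoters with end regions in both lists and 48.4% of all.

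In the promoters printed above, Mrpl33 holds CCGGAA at -21 and -3 with an NRF1 match between them at -12. Mrpl43 holds CCGGAA at -56, -18 and -12. Mrps7 holds AAGATGG at position 19, and Mrps18a, Mrps27 and Mrpl49 hold it at positions 12, 15 and 17. By class, the ETS core was in 34 of 61 members with a start region in both lists (55.7%), in 3 of 6 with one in the control-labelled list only and in Mrpl30. Mrpl34, without a start region in either list, also holds it. A match describes the letters only.

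Other genes of mitochondrial translation were also acetylated at their ends in most cases; over all genes, end regions were present in both lists at 38.4%, in the control-labelled list only at 6.62%, in the BN1-labelled list only at 3.23% and in neither at 51.8%. The 5 mitoribosome proteins with other symbols (Dap3, Ptcd3, Chchd1, Aurkaip1 and Gadd45gip1) all had end regions in both lists. Ptcd3 had the highest fold enrichment of them in the control-labelled list (37.0, and 24.4 in the BN1-labelled list) and Dap3 in the BN1-labelled list (33.2, and 22.6 in the control-labelled list). Of 14 translation factors 13 had an end region in both (92.9%), and Mtrf1, a release factor homologue, in the control-labelled list only (3657 and 2926 bp in its window). Of 17 mitochondrial aminoacyl-tRNA synthetases 14 had one in both (82.4%), Tars2 in the control-labelled list only, Pars2 in the BN1-labelled list only (313 bp), and Aars2 in neither.

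Of 25 assembly factors of the mitochondrial ribosome, 21 had end regions in both lists (84.0%, against 38.4% of all genes). Mettl17 (781 bp) and Mtg2 (295 bp) had one in the control-labelled list only, Mterf4 (337 bp) in the BN1-labelled list only and Rcc1l in neither. Of 13 factors of mitochondrial DNA and RNA, 11 had one in both (84.6%). The remaining 2 were Polg, the mitochondrial DNA polymerase, which had a peak at its annotated start in both lists, and Polrmt, the mitochondrial RNA polymerase, which had no peak within 10 kb in either. Aars2, Rcc1l and Tars2 likewise had a peak at the annotated start in both lists.

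Of 11 regulators of nuclear mitochondrial genes, 8 had end regions in both lists (72.7%, against 38.4% of all genes), among them Nrf1 (fold enrichment 24.6 labelled control, 40.4 labelled BN1), Gabpa (30.6 and 21.8) and Yy1 (24.7 and 45.0). Ppargc1b, a coactivator of mitochondrial biogenesis, had 4082 bp in its window in the control-labelled list and none in the BN1-labelled list. Its relative Ppargc1a had no end region in either, with 1393 bp and none. Gabpb1 had no end region but a peak at its annotated start in both lists.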

How the data were processed

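The deposited narrowPeak lists, 1 per ChIP library, were analysed; the input libraries were not analysed here. The submitters' processing notes name the build mm10 (GRCm38) and, with no role or order, MACS3 3.0.1, deepTools 3.5.1, Picard 3.2.0 and Bowtie2 2.5.4. Use of the input, pooling and threshold: not given in the sources used here. The authors' values per peak are a summit fold enrichment, which is a linear ratio, −log10 p and −log10 q (of the p-value and q-value), and a score that was not used. The lowest −log10 q was 1.32 (labelled control) and 1.30 (labelled BN1). Read depth is unknown and limits which weak regions could be called.

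Peaks did not overlap within a list. End regions, acetylated lengths and sharing were computed for all 21887 genes with scipy 1.17.1, pandas 2.3.3 and numpy 2.4.6 under Python 3.11.15, and figures with matplotlib 3.10.9. End regions at the lower gene coordinate and acetylated lengths were tested on simulated data with planted regions. End regions at the upper coordinate and sharing were not tested in this way. Promoters came from a RefSeq table that covers 17492 of these genes. With 1 library per group, no test between the lists was run. Counts are set beside the same count over all genes.

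Named members were those with an end region in 1 list or neither, the 5 largest length differences per direction per Mb, the 5 highest fold enrichments and 3 widest end peaks per list, and the 3 largest summit distances; of other lists, up to 6 members with an end region in 1 list or neither. Others were named after their values were seen. The members and lists were chosen with earlier results of these data known. Mtrfr was not found in the gene table. Alternatives covered the −log10 q minimum, lists of equal length, the top 10000 peaks, end windows, flanks, the start alone, the overlap rule and the length scale.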

Additional observations from a re-analysis of the deposited data

How the results depend on the processing

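Of 99 recomputed values, 70 were classed as the same as the reported ones, 28 as moved and 1 as changed in sign. The class of the same is broad. With a −log10 q minimum of 10 it includes a fall from 21 to 14 assembly factors with end regions in both lists, and from 66 to 48 members. The number of members with end regions in both lists was 66 and stayed between 48 and 69 except with the top 10000 peaks of each list (37). The number in the BN1-labelled list only (1, against 3.23% of all genes) became 4 and 11 (5.13% and 14.1%, against 3.5% and 4.15%) with a −log10 q minimum of 5 and 10, 5 (6.41%, against 4.91%) with lists of equal length and 19 (24.4%, against 7.54%) with the top 10000 peaks. That in the control-labelled list only (5, against 6.62%) became 3 (3.85%, against 5.09%) with lists of equal length. Neither list had an end region at 14 members with a −log10 q minimum of 10 (against 57.4% of all genes), at 16 with the top 10000 peaks (61.0%), at 2 with a 2500 bp window (48.6%) and at 1 of 69 with the start alone (51.3%), against 6 (51.8%). The median difference in acetylated length, BN1 minus control (-341.5 bp, all genes -457 bp), was -904.5 bp with 50 kb flanks (all genes -938 bp), -146.5 bp without flanks (-215 bp) and -58.5 bp with the top 10000 peaks (-175 bp), and changed sign to 9.10 bp per Mb of covered length (10.2 bp per Mb), since the covered lengths of the lists differ. Members at least 2-fold longer in the BN1-labelled list (3, or 3.85%, against 10.5% of all genes) numbered 6 (7.89%, against 11.0%) and 13 (18.1%, against 11.7%) with a −log10 q minimum of 5 and 10. They numbered 8 (10.5%, against 14.3%) with lists of equal length, 20 (28.6%, against 20.3%) with the top 10000 peaks, 1 (1.28%, against 8.95%) with 50 kb flanks and 10 (12.8%, against 19.0%) per Mb. Those longer in the control-labelled list (16, or 20.5%, against 33.9%) numbered 28 (35.9%, against 33.9%) with 50 kb flanks and 10 (14.3%, against 24.5%) with the top 10000 peaks. These shares are of genes with any length under the same setting. Shared end peaks made up 94.4% of the control-labelled list with lists of equal length (all genes 84.7%), and 80.3% (86.2%) and 63.8% (75.9%) of the BN1-labelled list with a −log10 q minimum of 10 and with the top 10000 peaks. With the top 10000 peaks, end regions in both lists were left at 7 translation factors, 8 tRNA synthetases, 10 assembly factors and 7 DNA and RNA factors, against 26.9% of all genes. No paired analysis was possible because each group has 1 library. The causes of the other changes were not tested. The unknown read depth limits weak peaks.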
